A study of Mus musculus with 6 samples.

Results

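The genes described here encode the proteasome and the proteins that build, activate or inhibit it. They were the protein-coding genes whose symbol starts with Psma, Psmb, Psmc, Psmd, Psme, Psmf or Psmg followed by a digit, 50 of the 36065 gene records in the table. By role, from textbook knowledge, they were 7 core α and 7 core β genes, 4 immune or thymic β genes, 1 testis α gene, 6 base ATPases, 3 other base genes, 8 lid genes, 6 activators or inhibitors and 7 assembly chaperones. The remaining match, Psmc3ip, encodes a partner of the meiotic recombinase and is not a subunit. The genes lay on 16 chromosomes, 10 of them on chromosome 11.

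The proteasome degrades proteins tagged with ubiquitin. Its core particle is a barrel of stacked rings in which outer α subunits gate the entrance and inner β subunits hold the cutting sites. A regulatory particle sits on the barrel: ATPases in its base unfold the substrate, and its lid removes ubiquitin. After fertilization the embryo depends on this system to clear oocyte proteins while its own genome is still largely silent, so that most of the mRNA present was made by the oocyte.

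Wild-type mouse embryos at the 1-cell stage were cultured in vitro in 3 groups, and their RNA was sequenced. CBR+SAM embryos received CBR-5884, an inhibitor of serine metabolism, together with S-adenosylmethionine, the methyl donor of methyltransferases. CBR embryos received CBR-5884 alone, and DMSO embryos received only the solvent. Each group had 2 biological replicates, written below as replicate 1 and replicate 2; the labels give neither strain, embryo number, dose nor culture time. Whether the replicates came from separate matings is not stated, so p-values measure only the spread between these libraries. Values are the deposited abundances, which are scaled for transcript length. That scaling alone does not make levels of different genes fully comparable, since reads can be divided between near-identical records. How evenly different mRNAs were captured was not tested.

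The columns summed to between 956208.5 and 1059424. Relative depth, read from the steps between low values, ran from 0.779 in DMSO replicate 2 to 1 in CBR replicate 2, and absolute depth is not reported. All 8 oocyte and zygote markers were present, with sums of 40526 to 52464 per library. The 6 blood and immune markers summed to 0.0121 to 0.671, the 6 sperm markers to 12.7 to 16.8, mostly Prm2, and the 4 oviduct markers to 2.65 to 4.14. The 8 cumulus and granulosa markers summed to 236.5 in CBR+SAM replicate 2, against 508 to 616 in the other 5 libraries, most of it Serpine2, which had 224.5 there and 496 to 602 elsewhere. Cyp19a1, the other tested gene of the list, had 11.9 there and 8.14 to 13.6 elsewhere. The defining genes of that list Inha, Amh and Foxl2 were at or near 0 in every library. CBR+SAM replicate 2 also stood apart over all genes: it held the lowest of the 6 values for 27.5% of the 12249 genes tested and the highest for 29.3%. Changes named below that move by over 1.5 times when this or another library is left out are given with that value.

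Most proteasome genes were abundant, and their levels differed far more between subunits than between culture groups. The mean over the 6 libraries was at least 100 for 16 of the 50 genes, a level reached by 12.6% of the tested protein-coding genes. It was at least 10 for 38 genes, from 1 to 10 for 5 and under 1 for 7, and 36 of the 50 lay above 10.4, the median of the tested protein-coding genes. Together the 50 genes made up 0.51% to 0.574% of a library's summed abundance. Among the 38 with a mean of at least 10, the coefficient of variation over the 6 libraries had a median of 11.0%, from 5.16% for Psma4 to 22.9% for Psmd11, against 12.5% for the 5588 protein-coding genes at that level. Values are shares of each library's RNA, so fewer cells of a type and less RNA per cell cannot be told apart.

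**Figure D1:**
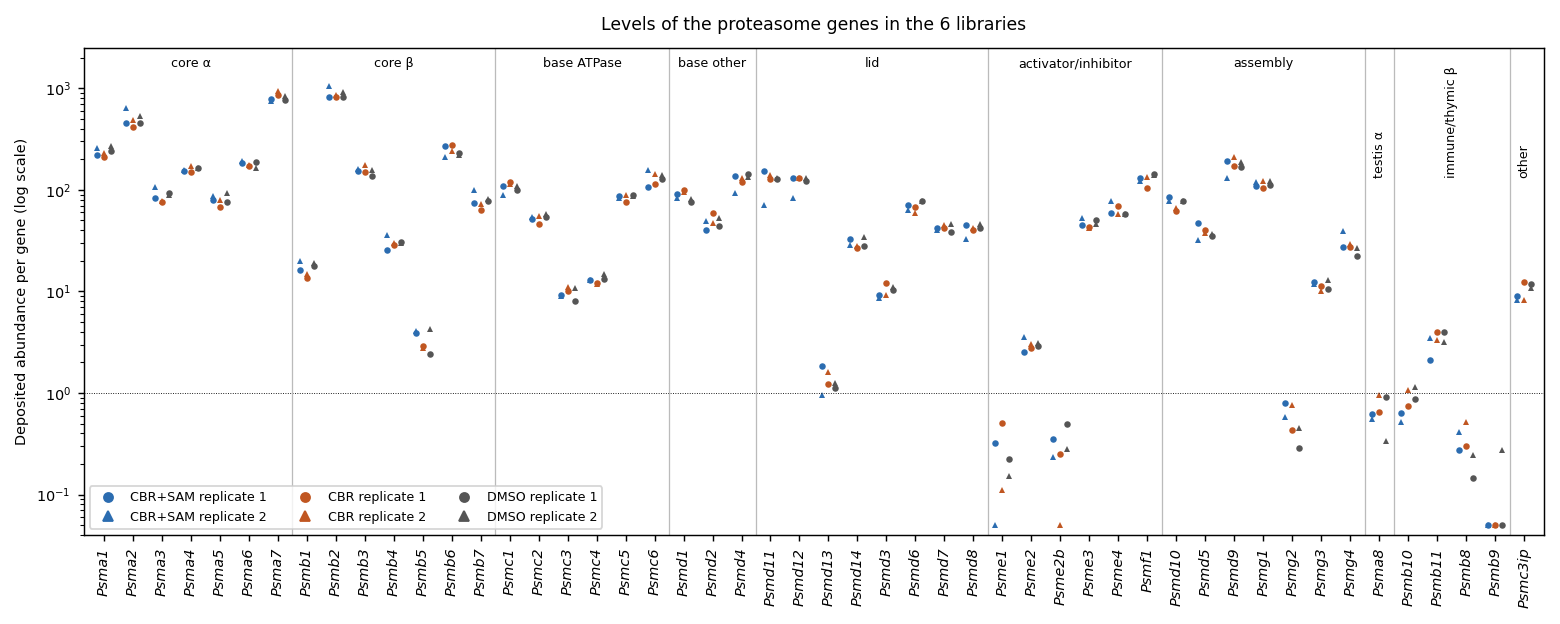
Deposited abundance of each of the 50 genes in the 6 libraries, on a log scale and grouped by role, with values under 0.05 drawn at 0.05 and a dotted line at 1. Points of 1 gene lie close together, whereas the genes of a ring spread widely, from Psmb5 at 2.41 to 4.30 up to Psmb2 at 816 to 1046 among the core β genes.

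Means of the α ring genes ran from 80.7 for Psma5 to 824 for Psma7, a span of 10.2-fold. Psma7 had 787 and 744 in the CBR+SAM libraries, 858 and 938 in the CBR libraries, and 775 and 843 in the DMSO libraries. Both CBR values lay above all others. Psma2 had 457 and 636 with CBR+SAM, 420 and 491 with CBR, and 459.5 and 530.2 with DMSO, so its groups overlapped. Psma1 ranged from 212 to 274 over the 6 libraries, Psma6 from 166 to 191, Psma4 from 152 to 173, Psma3 from 76.2 to 108 and Psma5 from 68.2 to 93.8. The ranges of Psma6 and Psma4 overlapped, as did those of Psma3 and Psma5. Psma7 exceeded Psma5 by 8.46-fold to 12.6-fold within a library. A complete ring takes 1 copy of each α protein.

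The β ring was uneven. Psmb2 was the highest proteasome gene, with 816 and 1046 in the CBR+SAM libraries, 819 and 870 in the CBR libraries, and 824 and 922 in the DMSO libraries. Psmb2 (ENSMUSG00000028837) lies on chromosome 4 at 126677630 to 126709714 of mm10. At the other end stood Psmb5, which encodes the subunit with the chymotrypsin-like cutting site, the main target of proteasome inhibitor drugs. It had 3.94 and 4.10 with CBR+SAM, 2.93 and 2.79 with CBR, and 2.41 and 4.30 with DMSO. Psmb2 exceeded Psmb5 by 206.9-fold to 341.6-fold within a library. The genes of the other cutting sites were higher: Psmb6, the caspase-like site, had a mean of 241.6 and exceeded Psmb5 by 50.8-fold to 95.3-fold, and Psmb7, the trypsin-like site, had a mean of 78.4 and exceeded it by 18.8-fold to 32.3-fold. Of the structural β genes, Psmb3 ranged from 138.5 to 176.5, Psmb4 from 25.3 to 36.0 and Psmb1 from 13.6 to 19.8, with no overlap among these 3.

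The low value of Psmb5 has to be read beside that of a processed pseudogene. Gm3375, on chromosome 7 at 3181093 to 3181888, matched the Psmb5 transcript at 98.9% identity and had a mean of 2.98, close to the 3.41 of Psmb5. Over the 795 coding bases the records differed at 8, and the longest identical run was 194 bases, so short reads could have been divided between them. The stretch below shows coding bases 263 to 322 of Psmb5, counted from the first base of the start codon, and the matching bases of Gm3375. It was chosen because it holds 2 of the 8 differences, which are in capitals, and the rest is identical. Psmb5 is on the minus strand of chr14:54614119-54618022 and Gm3375 on the plus strand of chr7:3181093-3181888, both in GRCm38.
Psmb5: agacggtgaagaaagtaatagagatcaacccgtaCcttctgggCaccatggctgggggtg
Gm3375: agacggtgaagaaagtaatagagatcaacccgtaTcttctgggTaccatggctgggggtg

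With Gm3375 added, the Psmb5 sum reached 6.89 and 8.04 in the CBR+SAM libraries, 4.98 and 6.15 in the CBR libraries, and 4.88 and 7.42 in the DMSO libraries. Psmb7 alone ranged from 63.9 to 100.1. Gm3375 made up 41.2% to 54.7% of the sum of Psmb5 and Gm3375. Psma3 had a copy of the same kind: Gm13835, on chromosome 6 at 31141979 to 31142663, was identical to it over all 685 bases and had a mean of 22.0. Together 3 Psma3 copies took 23.4% and 22.4% of the summed Psma3 abundance with CBR+SAM, 22.4% and 22.5% with CBR, and 15.0% and 21.5% with DMSO. In all, 12 of the 50 genes had a record of at least 95% identity in the table, 18 records in total, of which 4 had a mean of at least 1. The other 38 genes had none by this rule.

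**Figure D2:**
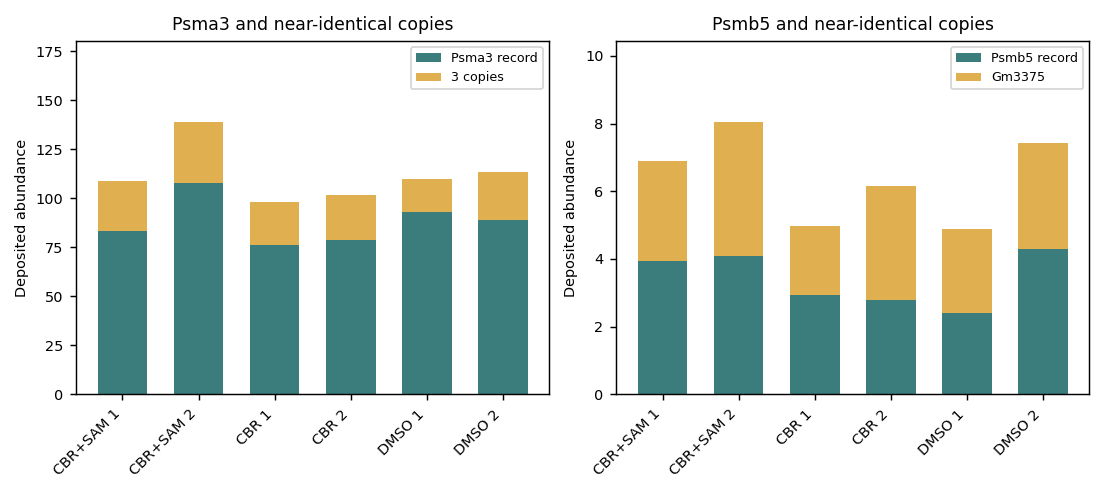
Stacked deposited abundance of Psma3 and its 3 near-identical records (left) and of Psmb5 and Gm3375 (right) in each of the 6 libraries. The copies hold 15.0% to 23.4% of the Psma3 bar and 41.2% to 54.7% of the Psmb5 bar.

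Psmb5 and Psmb6 encode cutting sites of the same ring at levels 70.8-fold apart, or 37.8-fold with Gm3375 added to Psmb5, and the promoters of both hold the core of the antioxidant response element, TGACNNNGC, which Nrf1 and Nrf2 bind when they raise proteasome genes in other mammalian cells. The 100 bases before each RefSeq start are shown from GRCm38.p6 with the match in capitals, Psmb5 from the minus strand of chr14:54617996-54618095 and Psmb6 from the plus strand of chr11:70525257-70525356.
Psmb5: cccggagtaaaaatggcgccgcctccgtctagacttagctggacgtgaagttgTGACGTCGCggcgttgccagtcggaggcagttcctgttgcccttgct
Psmb6: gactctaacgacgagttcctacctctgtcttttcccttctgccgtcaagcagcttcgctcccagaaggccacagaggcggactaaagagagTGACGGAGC

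The match began 47 bases before the start in Psmb5 (position -47) and 9 bases before it in Psmb6 (position -9). A RefSeq promoter, from 250 bases before to 50 after the start, was found for 42 of the 50 genes, and motifs were sought on both strands. The element's core was in 6 of the 42 (14.3%), namely Psmb5, Psmb6, Psmc6, Psmd12, Psmd9 and Psme4, against 14.7% of 8649 tested protein-coding genes and 12.4% of all 32851 promoters in the table. These 6 genes ranged in mean level from 3.41 to 241.6. CCAAT was in 35.7%, against 40.3% and 37.4%, and TATAAA in 9.52%, against 7.72% and 13.6%. CCGGAA, the core bound by ETS factors, was in 20 of the 42 promoters (47.6%), against 28.7% of the tested protein-coding genes and 14.9% of all. These sets were not chosen alike. For a gene with several promoters, the one nearest the annotated gene start was taken for proteasome genes. For the tested protein-coding genes it was the first listed, and the set of all promoters counts each one. The 42 also include genes that were not tested. Overlap between motifs was not removed. Of 41 genes with a 3′ UTR of at least 100 bases, 5 (12.2%) held TTTTAT or TTTTAAT, forms of the cytoplasmic polyadenylation element through which oocytes store and later activate mRNA, in the last 100 bases, against 19.97% of 10467 tested protein-coding genes. They were Psma1, Psmg1, Psma5, Psmb1 and Psmg3. The 41 include genes that were not tested, and these 5 are 13.9% of the 36 tested ones. These matches describe the letters and were not tested against the levels.

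Genes of the specialised cores were low. Psmb8, Psmb9 and Psmb10 replace the 3 cutting subunits in the immunoproteasome of immune cells. Psmb8 lay between 0.145 and 0.518 and Psmb10 between 0.521 and 1.13, while Psmb9 was listed at 0 in 5 libraries and at 0.278 in DMSO replicate 2. The thymic counterpart Psmb11 lay between 2.12 and 3.99, a range that overlaps that of Psmb5. Psma8, the α subunit of the testis core, lay between 0.338 and 0.961, against 744 to 938 for its somatic counterpart Psma7.

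In the base, 4 of the 6 ATPase genes had means from 52.9 to 132, and Psmc4 and Psmc3 had means of 13.0 and 9.70. Psmc6 was highest, with 106 and 159 in the CBR+SAM libraries, 114.5 and 144.8 in the CBR libraries, and 128.5 and 139.7 in the DMSO libraries, and both CBR+SAM values lay outside the range of the other 4. Psmc1 ranged from 89.0 to 121, Psmc5 from 76.8 to 89.9 and Psmc2 from 45.7 to 57.4. Psmc4 ranged from 11.9 to 14.8 and Psmc3 from 8.02 to 11.0, without overlap. The ATPase ring holds all 6 proteins in equal number. The scaffold genes Psmd1 and Psmd2 ranged from 76.2 to 99.2 and from 40.6 to 59.1, and Psmd4, which encodes a ubiquitin receptor, from 93.5 to 142.5.

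The lid spanned 94.0-fold between the means of its genes. Psmd11 and Psmd12 had means of 125 and 122. Psmd6 ranged from 59.7 to 78.2, Psmd7 from 38.8 to 45.9 and Psmd8 from 33.2 to 46.4. Psmd14, the deubiquitinase that cuts ubiquitin chains off the substrate, ranged from 26.6 to 34.1, and its partner in the same module, Psmd7, exceeded it in all 6 libraries. Psmd3 ranged from 8.60 to 12.1. Psmd13 was by far the lowest, with 1.86 and 0.948 in the CBR+SAM libraries, 1.23 and 1.60 in the CBR libraries, and 1.13 and 1.24 in the DMSO libraries.

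Genes of the alternative caps of the core had unequal transcript levels. Psme1 and Psme2 encode the cytoplasmic activator that interferon induces: Psme1 lay between 0 and 0.504 and Psme2 between 2.53 and 3.58. Psme2b, 99.4% identical to Psme2 over 794 bases, lay between 0 and 0.492, and reads of these 2 genes could have been divided. The nuclear activator gene Psme3 ranged from 42.6 to 52.4, and Psme4, whose product caps cores that degrade acetylated histones in testis, from 57.7 to 77.3. Psmf1, which encodes a proteasome-binding inhibitor, was the highest of the group, from 105 to 143.

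Among the assembly chaperones, transcript levels of partner genes could lie far apart, and no protein was measured. Psmg1 and Psmg2 form a dimer that starts the α ring. Psmg1 ranged from 105 to 121, whereas Psmg2 lay between 0.29 and 0.799, and the ratio within a library was 136.9-fold to 389-fold. Neither gene had a near-identical record in the table. The partners Psmg3 and Psmg4 ranged from 10.1 to 13.1 and from 22.4 to 39.5. Of the base chaperones, Psmd9 ranged from 131 to 213, Psmd10 (gankyrin) from 62.1 to 85.1 and Psmd5 from 32.4 to 47.5. Psmc3ip ranged from 8.16 to 12.3.

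Culture groups were compared with limma on log2(value + 1) over 12249 genes, those that reached 1 in 2 or more libraries, with Benjamini-Hochberg adjustment over all of them and a threshold of 0.05. Of the 50 proteasome genes 44 passed this filter; Psma8, Psmb8, Psmb9, Psme1, Psme2b and Psmg2 did not and were not tested. A change on this scale understates that of low genes. The 3 comparisons share libraries, each group entering 2 of them, so they are not independent of each other. None of the 44 genes was called in any comparison, and all 44 fitted changes lay within 0.5 on the log2 scale in each. The 95% intervals had a median half-width of 0.41, and they stayed within 1 in either direction for all 44 genes with CBR against DMSO and for 43 in each of the others, Psmd11 being the exception.

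CBR embryos were set against DMSO embryos to see what the inhibitor did. No proteasome gene was called, and the 44 changes had a median of -0.05, against -0.01 over all genes tested. Over all genes limma called 0 (0% of those tested) at the adjusted threshold and 260 (2.12%) at an unadjusted p under 0.05. Of the 44 proteasome genes 0 reached even the unadjusted level in this fit. That count depended on the setting, and fits that leave out a library are not counted here. It was 4 with the 4 libraries of the comparison alone, against 534 of all 11853 genes. With equal column sums it was 1, against 296 of 12254, and without a filter 2 of 50, against 882 of 26034. In the main fit 16 of the 44 changes were positive and 28 negative, against 48.3% positive over all genes. Both CBR values lay above both DMSO values for 7 of the 44 (15.7% of all genes) and below them for 12 (17.3%), 19 in all against 33% of all genes. The median was -0.09 for the 14 core genes, -0.02 for the 17 base and lid genes and 0.01 for the lid.

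Psmb1, a structural core β gene, had 13.6 and 14.9 in the CBR libraries, against 18.02 and 19.11 in the DMSO libraries. These groups did not overlap, and the log2 change was -0.36 (SE 0.17, 95% interval -0.76 to 0.04, limma adjusted p = 1). The scaffold gene Psmd1 had 99.2 and 95.5 with CBR, against 76.2 and 81.6 with DMSO, a log2 change of 0.30 (SE 0.14, interval -0.03 to 0.63, limma adjusted p = 1). Its CBR values lay above all 4 others. Psmd10 had 62.1 and 66.3 with CBR, against 77.4 and 78.3 with DMSO, a log2 change of -0.28. Psmd6, of the lid, had 68.5 and 59.7 with CBR, against 77.3 and 78.2 with DMSO, also a log2 change of -0.28. Psmf1 had 105 and 134 with CBR, against 143 and 140.2 with DMSO, a log2 change of -0.25. Psmb6, Psmc1 and Psma7 had log2 changes of 0.21, 0.17 and 0.15, and their CBR values lay above both DMSO values. Some of these values turned on 1 library. Psmf1 was -0.08 without CBR replicate 1 and -0.43 without CBR replicate 2, Psmb6 was 0.12 without CBR replicate 1, and Psmd6 was -0.18 without CBR replicate 2. Psma7 was 0.09 without CBR replicate 2 or without DMSO replicate 1, and Psmc1 was 0.10 without DMSO replicate 1. The limma adjusted p was 1 for each of the genes in this paragraph.

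CBR+SAM embryos were set against CBR embryos to see what the methyl donor did under inhibition. The 44 changes had a median of 0.03, against 0.01 over all genes (both -0.02 with every library rescaled to the same sum), with 25 positive and 19 negative against 52.4% positive over all genes. limma called 1 gene (0.00816%) at the adjusted threshold, the pseudogene Gm16550, and 378 (3.09%) at an unadjusted p under 0.05. Gm16550, named here after its values were seen, had 8.34 and 8.59 with CBR+SAM and was listed at 0 and 0.000873 with CBR. Of the proteasome genes 0 were called and 1, Psmd10, reached the unadjusted level. Groups did not overlap for 17 of the 44, against 27.5% of all genes, with CBR+SAM above CBR for 11 (15% of all genes) and below it for 6 (12.5%). The median was 0.12 for the core genes, -0.09 for the base and lid genes and -0.08 for the lid; without CBR+SAM replicate 2 it was 0.03, 0.05 and 0.14.

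Psmd10 (ENSMUSG00000031429, X chromosome at 140948429 to 140956728) had 85.1 and 77.6 in the CBR+SAM libraries, against 62.1 and 66.3 in the CBR libraries. The fitted difference was 0.34 on the log2 scale (SE 0.14, 95% interval 0.01 to 0.67), with an unadjusted p of 0.047 and an adjusted p of 0.988 by limma. In this comparison no proteasome gene reached the unadjusted level with equal column sums, with median-ratio scaling, with a replicate block or in the 4 libraries alone. The count stayed at 1 with a pseudocount of 0.1, without a filter and with a mean of at least 10. It was also 1 with quantile normalization and with protein-coding genes alone. Fits that leave out a library are not counted here, since 1 library then stands for a group. The CBR values of Psmd10 also lay below both DMSO values, and its CBR+SAM values stood beside those of the DMSO libraries, at 77.4 and 78.3. Psmb7 had 74.2 and 100.1 with CBR+SAM, against 63.9 and 73.0 with CBR, a log2 change of 0.33. Psmb1 had 16.2 and 19.8 with CBR+SAM, against 13.6 and 14.9 with CBR, a log2 change of 0.31. Psma3 had 83.3 and 108 with CBR+SAM, against 76.2 and 78.6 with CBR, a log2 change of 0.29, with the near-identical copies described above. In all 4 genes the groups did not overlap. Without CBR+SAM replicate 2 the change was 0.12 for Psmb7, 0.17 for Psmb1 and 0.11 for Psma3, and without CBR+SAM replicate 1 it was 0.55 for Psmb7 and 0.47 for Psma3. Psmd10 was 0.40 and 0.27 in the same settings.

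Among the negative changes, Psma7 and Psmc1 had log2 changes of -0.23 and -0.25 without overlap, and Psmc1 was -0.10 without CBR+SAM replicate 2 and -0.40 without CBR+SAM replicate 1. Psmd12 had 132.2 and 83.4 with CBR+SAM, against 130.9 and 132.0 with CBR, so its change of -0.32 came from replicate 2. Without that library it was 0.01, and without CBR+SAM replicate 1 it was -0.65. Psmb11 had 2.12 and 3.51 with CBR+SAM, against 3.99 and 3.32 with CBR, a log2 change of -0.31 with overlap, which was -0.57 without CBR+SAM replicate 2, -0.04 without CBR+SAM replicate 1 and -0.21 without CBR replicate 1. For every gene of these 2 paragraphs the limma adjusted p was 0.988.

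CBR+SAM embryos were also set against DMSO embryos. The 44 changes had a median of -0.03, against 0.00 over all genes when rounded, with 16 positive and 28 negative against 49% positive over all genes. With every library rescaled to the same sum, 11 of the 44 and 35.4% of all genes were positive. limma called 1 gene (0.00816%), again Gm16550, and 262 (2.14%) at an unadjusted p under 0.05. Of the 44 proteasome genes 0 were among either. With a replicate block 1 of them reached the unadjusted level, against 340 of all 12249 genes. Counts from fits that leave out a library are not given here. Groups did not overlap for 11 of the 44, against 24.5% of all genes, with CBR+SAM above DMSO for 3 (12.4% of all genes) and below it for 8 (12.1%). The median was 0.07 for the core genes, -0.08 for the base and lid genes and -0.19 for the lid; without CBR+SAM replicate 2 it was -0.10, -0.01 and 0.05.

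Psmg4 had 27.5 and 39.5 in the CBR+SAM libraries, against 22.4 and 26.7 in the DMSO libraries, without overlap. Its log2 change of 0.42 (SE 0.21, 95% interval -0.07 to 0.91, limma adjusted p = 1) was 0.16 without CBR+SAM replicate 2 and 0.67 without CBR+SAM replicate 1. Psme4 had 59.8 and 77.3 with CBR+SAM, against 57.9 and 58.4 with DMSO, a log2 change of 0.22 that was 0.04 without CBR+SAM replicate 2 and 0.41 without CBR+SAM replicate 1. Psmd1 had 90.2 and 83.9 with CBR+SAM, against 76.2 and 81.6 with DMSO, a log2 change of 0.14 that was 0.09 without CBR+SAM replicate 1 or without DMSO replicate 1. Psmb5 had a change of 0.24 with overlapping groups, which was -0.08 without DMSO replicate 1 and 0.56 without DMSO replicate 2. Psmb10 had 0.636 and 0.521 with CBR+SAM, against 0.866 and 1.13 with DMSO, a log2 change of -0.34 at values near the filter. It passed the filter only through DMSO replicate 2 and CBR replicate 2, at 1.07, so the filter itself favoured lower CBR+SAM values. Psmc3ip and Psmd6 had changes of -0.35 and -0.21 without overlap, and Psmd6 was -0.14 without CBR+SAM replicate 2. Psmd4 had 138.5 and 93.5 with CBR+SAM, against 142.5 and 133.8 with DMSO, a change of -0.28 that was 0.01 without CBR+SAM replicate 2 and -0.56 without CBR+SAM replicate 1. The limma adjusted p was 1 for each.

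**Figure D3:**
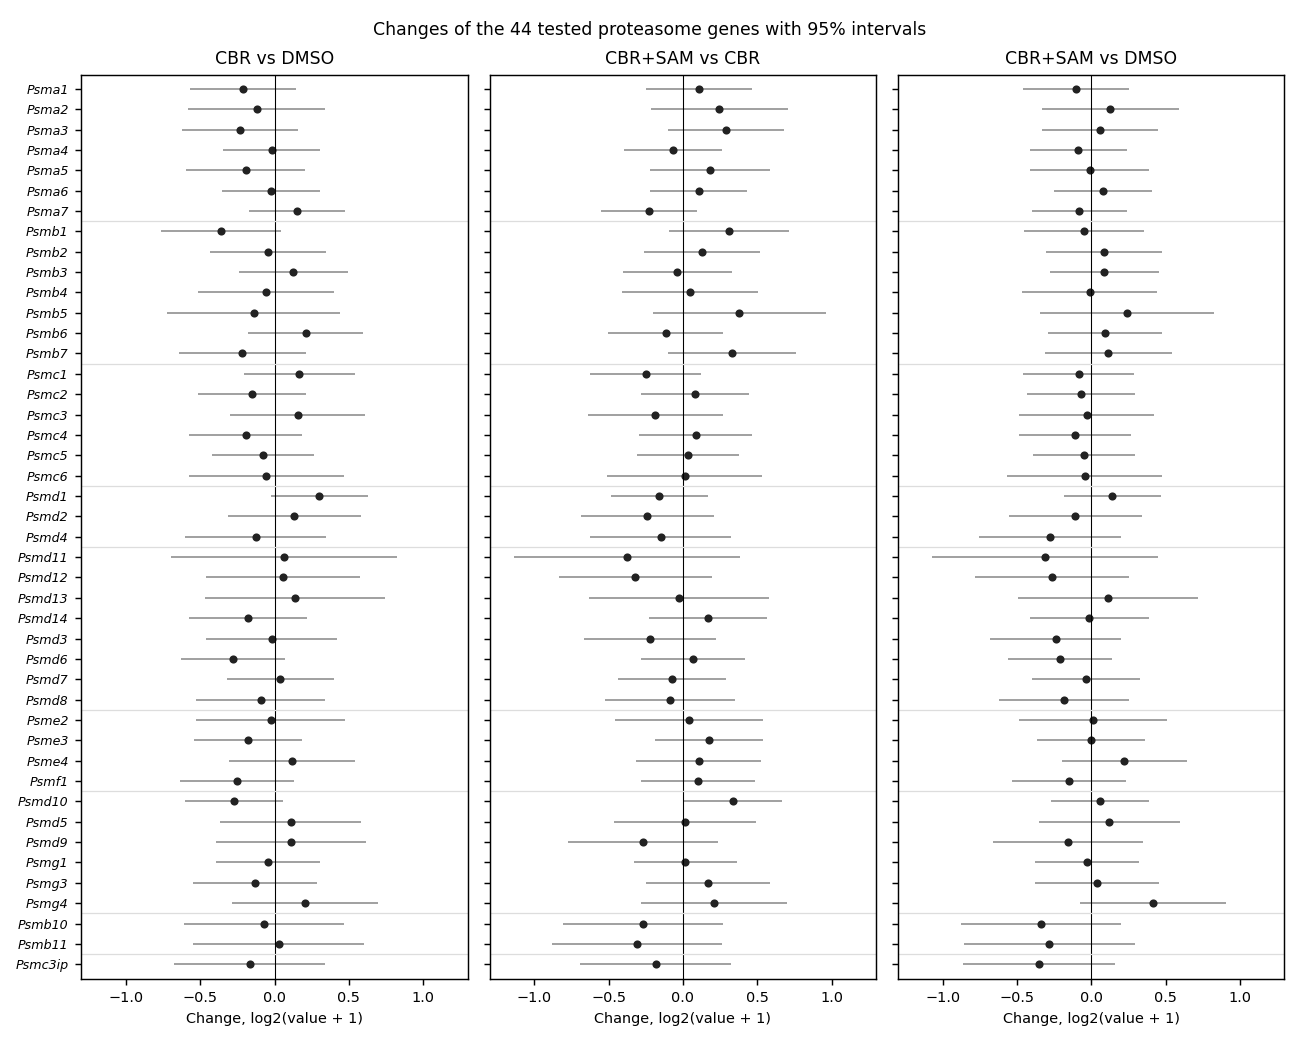
Fitted log2 changes (points) with 95% intervals (lines) of the 44 tested genes in the 3 comparisons, from log2(value + 1) and ordered by role. All points lie within 0.5 of 0, and the interval of Psmd10 with CBR+SAM against CBR, 0.01 to 0.67, lies on 1 side of 0, whereas all other intervals reach 0.

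The balance between core and regulatory particle transcripts stood apart in 1 library. The summed abundance of the 14 core genes over that of the 17 base and lid genes was 2.93 in CBR+SAM replicate 1 and 3.90 in CBR+SAM replicate 2, 2.98 and 3.08 in the CBR libraries, and 3.01 and 3.08 in the DMSO libraries. The ratio of the median core gene to the median base or lid gene did not set that library apart, at 2.97 and 2.94 with CBR+SAM, 2.54 and 3.20 with CBR, and 2.79 and 2.83 with DMSO. The lid sum was 487 and 329.6 with CBR+SAM, 450.1 and 459.3 with CBR, and 447.9 and 477.8 with DMSO. The CBR+SAM replicates lay on either side of the other 4 libraries in lid sum.

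Both sides of the ratio differed between the CBR+SAM replicates. The core sum was 3326 in replicate 1 and 3760 in replicate 2. The base and lid sum was 1133 and 964, of which the base held 646 and 634. These sums moved mainly with a few abundant genes. In the core the largest differences were in Psmb2, with 816 and 1046, and Psma2, with 457 and 636. In the lid they were in Psmd11 and in Psmd12, which had 132.2 and 83.4. In CBR+SAM all 8 lid genes were lower in replicate 2 than in replicate 1, with a median log2 difference of -0.32, while 12 of the 14 core genes were higher, with a median of 0.18. Psmd11 (ENSMUSG00000017428, chromosome 11 at 80428615 to 80473248) had 153 and 70.3 with CBR+SAM, 128.8 and 141.6 with CBR, and 127.9 and 130.4 with DMSO. It had the highest value of the 6 in CBR+SAM replicate 1 and the lowest in replicate 2, a log2 difference of -1.11. CBR+SAM replicate 2 was the lowest of the 6 libraries for 5 of the 8 lid genes, namely Psmd11, Psmd12, Psmd13, Psmd3 and Psmd8, against 27.5% of all genes tested, and the highest for 7 of the 14 core genes, against 29.3%. In CBR and DMSO the lid medians of replicate 2 minus replicate 1 were 0.08 and 0.09. The core medians there were 0.13 and 0.10, with 12 and 10 of the 14 core genes higher in replicate 2. A rise of most core genes in replicate 2 was thus not particular to CBR+SAM. Over all genes tested the median in CBR+SAM was 0.01.

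Over protein-coding genes, transcript length moved weakly with the difference between the CBR+SAM replicates. The longest protein-coding transcript had a median length of 1162.5 bases among the core genes and 1819 among the base and lid genes. Among protein-coding genes with a mean of at least 10, replicate 2 minus replicate 1 in CBR+SAM had a median of 0.34 for 433 genes with a longest transcript under 1000 bases, against -0.02, -0.12 and -0.10 for genes of 1000 to 2000, 2000 to 4000 and over 4000 bases. The same medians ran from -0.03 to 0.08 in CBR and from -0.01 to 0.03 in DMSO. Among the 44 proteasome genes the correlation of log2 length with replicate 2 minus replicate 1 was weak and no stronger in CBR+SAM, at -0.13, than in CBR, at -0.15, or DMSO, at -0.29. The part of length, and of the lower Serpine2 level in that library, in the core and lid difference was not tested.

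**Figure D4:**
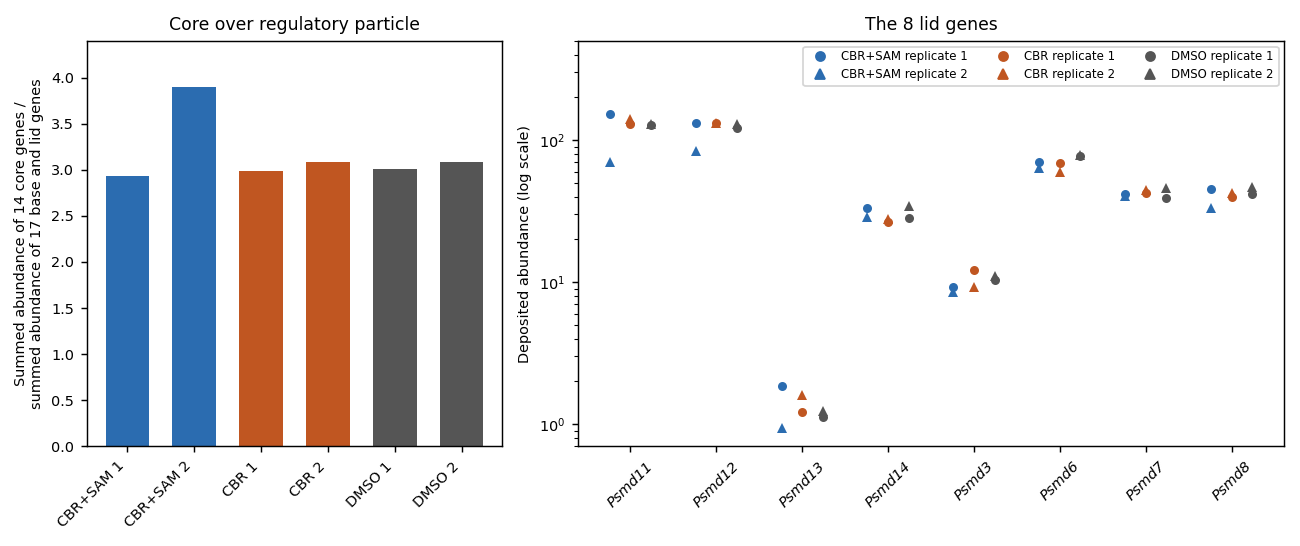
Left, summed abundance of the 14 core genes divided by that of the 17 base and lid genes in each library, as bars from 0; right, abundance of the 8 lid genes in the 6 libraries on a log scale. CBR+SAM replicate 2 has a ratio of 3.90, against 2.93 to 3.08 in the other 5, and has the lowest Psmd11 value, 70.3.

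**Figure D5:**
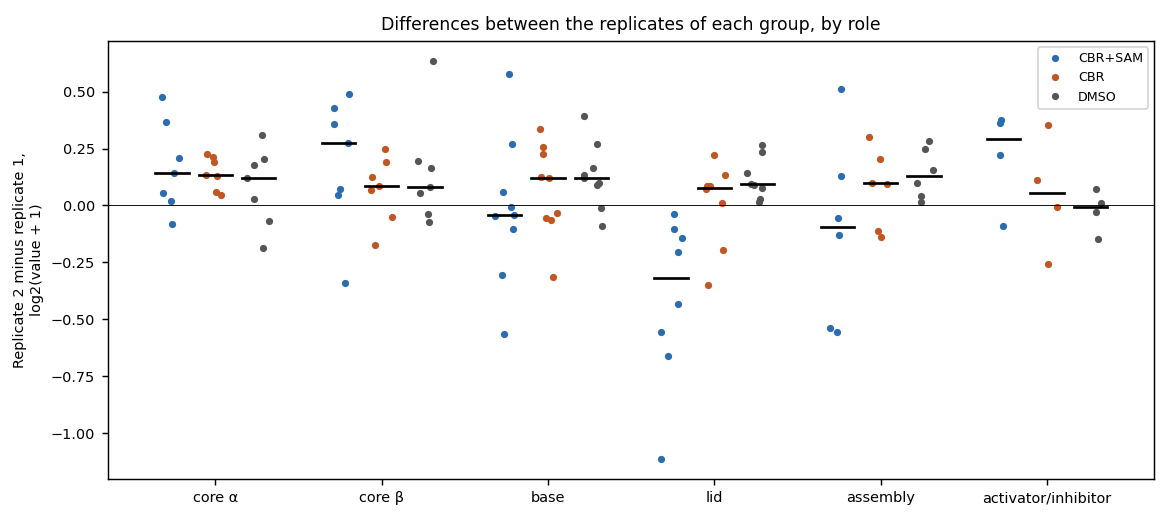
Replicate 2 minus replicate 1 within each culture group for each tested gene (points, log2(value + 1)), by role, with the median as a black bar. The 8 lid genes lie below 0 in CBR+SAM (median -0.32), against medians of 0.08 in CBR and 0.09 in DMSO.

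Genes that work with the proteasome but lie outside the symbol rule were taken from a list of 35, of which 34 were tested: 13 cofactors, 14 genes of ubiquitin and its shuttles, and 7 of the transcription factors and their processing enzymes. None of the 34 was called in any comparison. The median change was -0.01 with CBR against DMSO, 0.01 with CBR+SAM against CBR and -0.01 with CBR+SAM against DMSO. At an unadjusted p under 0.05 there were 0, 3 and 0 of the 34 genes, against 2.12%, 3.09% and 2.14% of all genes tested. The 3 were lower with CBR+SAM than with CBR.

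The most abundant gene of the list exceeded every subunit gene. It was Uchl5, a deubiquitinase bound to the base, which ranged from 1701 to 2589, against 816 to 1046 for Psmb2. Its receptor on the base, Adrm1, ranged from 33.8 to 42.2, and the other proteasome-bound deubiquitinase, Usp14, from 71.7 to 116. Akirin2, which carries proteasomes into the nucleus, ranged from 560.0 to 792, and Pomp, the maturation factor of the β ring, from 270 to 329. The polyubiquitin gene Ubb ranged from 841 to 1102. Sem1, the small lid subunit that the symbol rule does not reach, had 22.4 and 31.8 in the CBR+SAM libraries, 18.9 and 22.3 in the CBR libraries, and 16.3 and 22.1 in the DMSO libraries, and was thus highest in CBR+SAM replicate 2, where 5 of the 8 other lid genes had their lowest value.

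The 3 genes at the unadjusted level all had their lowest value in CBR+SAM replicate 2. Nfya, a subunit of the CCAAT-binding factor, had 65.2 and 28.2 with CBR+SAM, against 72.6 and 81.6 with CBR, a log2 change of -0.83 (unadjusted p = 0.0494, adjusted p = 0.988 by limma). Rad23b, a shuttle that carries ubiquitinated proteins to the proteasome, had 48.6 and 27.9 with CBR+SAM, against 60.2 and 60.4 with CBR, a log2 change of -0.69 (unadjusted p = 0.0259, limma adjusted p = 0.988). Nfe2l1, which encodes Nrf1, had 15.9 and 10.8 with CBR+SAM, against 19.3 and 18.9 with CBR, a log2 change of -0.51 (unadjusted p = 0.0434, limma adjusted p = 0.988). Without CBR+SAM replicate 2 these changes were -0.23 for Nfya, -0.31 for Rad23b and -0.25 for Nfe2l1, with limma adjusted p of 0.999, and without CBR+SAM replicate 1 they were -1.42, -1.08 and -0.77. Leaving out libraries for this list was chosen after its values were seen. The Nfe2l1 relative Nfe2l2 ranged from 7.07 to 8.79 over the 6 libraries.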

How the data were processed

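Tools in the submitters' processing notes are kallisto, fastp and DESeq2, with mm10 as the build and no versions or roles; the cDNA kit was SMART-Seq v4 and the library kit Nextera XT, per the labels' protocols, with no strand marking or molecular identifiers described. The authors deposited 1 signal value per gene and library, an abundance per transcript length. The columns sum to 956208.5 to 1059424, so the values had been rescaled in a way that is not given in the sources used here; 0 columns were left out. Of 36065 Ensembl records 35820 were matched to GENCODE M21 (21785 protein-coding, 13489 pseudogenes).

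Depth is not stated. Low values of single-transcript genes lay within 0.1 of a whole number of steps in 81.1% to 82% of cases, against 20% for evenly spread values, which gave relative depth alone and no whole counts, so no count test was run. Values entered limma 3.58.1 in R 4.3.3 as log2(value + 1), with 3 groups in 1 model (3 residual degrees of freedom) and a trend of variance with mean, and the test was checked on simulated data. A gene was tested if it reached 1 in 2 or more libraries, with Benjamini-Hochberg adjustment and a threshold of 0.05. Changes are given in full for called genes or up to 4 genes per direction and comparison with the smallest p. Members and lists were chosen with earlier results of these data known. Near-identical records (at least 95% identity over at least 50% of the shorter transcript) were sought in M21 transcripts with blastn 2.17.0. Alternatives covered pseudocount, filters, scaling, gene types, a replicate block and leaving out each library.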

Additional observations from a re-analysis of the deposited data

How the results depend on the processing

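No proteasome gene was called under any alternative. Of the 354 values of named genes under alternatives, 351 kept their direction and side of the threshold. Much of this was fixed in advance, so the count does not measure robustness. Filters, gene types, the 4 libraries alone and the replicate block cannot alter a gene's fitted change. Nor can leaving out a library of the group outside the comparison. With adjusted p of 0.988 or more by limma in the main fit, the side of the threshold could hardly change. The 3 values that turned did so when 1 library was left out. Psmd12 with CBR+SAM against CBR was 0.00868 without CBR+SAM replicate 2 and as low as -0.65 without another, Psmd4 with CBR+SAM against DMSO was 0.00512 without CBR+SAM replicate 2 and as low as -0.56, and Psmb5 with CBR+SAM against DMSO was -0.0785 without DMSO replicate 1 and as high as 0.56; the cause was not tested. Over all genes, CBR against DMSO had 0 calls, 1 with its 4 libraries alone and 0 to 2 when 1 library was left out. CBR+SAM against CBR had 1 call, 0 with a pseudocount of 0.1, without a filter, with a mean of at least 10 or with protein-coding genes alone, and 0 to 8 when 1 library was left out. CBR+SAM against DMSO had 1 call, 0 under the same 4 settings and 0 to 3 when 1 library was left out. The 8 calls came without CBR+SAM replicate 1, and the 2 and 3 without DMSO replicate 2. CBR+SAM against CBR had 0 without CBR+SAM replicate 2 or without either library of CBR, and CBR+SAM against DMSO had 0 without DMSO replicate 1 or either CBR replicate and 2 without CBR+SAM replicate 1. CBR against DMSO also had 1 without CBR+SAM replicate 1.

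The median change of the proteasome genes was -0.05, 0.03 and -0.03 in these comparisons, and -0.0917, -0.0153 and -0.114 with equal column sums. Leaving out 1 library gave -0.0900 to 0.00289 with CBR against DMSO, -0.0380 to 0.0844 with CBR+SAM against CBR and -0.105 to 0.0154 with CBR+SAM against DMSO. Without CBR+SAM replicate 1, the median with CBR+SAM against CBR was 0.27 for the core genes, -0.21 for the base and lid genes and -0.29 for the lid. With CBR+SAM against DMSO these medians were 0.12, -0.11 and -0.28. The single remaining library is then assumed to vary like the other groups.

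With a replicate block the calls over all genes were 0, 1 and 1, the medians were unchanged by construction, and 357, 554 and 340 genes had an unadjusted p under 0.05, against 260, 378 and 262. The numbers are not stated to pair libraries: replicate 2 minus replicate 1 correlated across the 12249 genes at 0.392 for CBR with DMSO, 0.0911 for CBR+SAM with CBR and 0.218 for CBR+SAM with DMSO. With 2 libraries a group, changes of the proteasome genes under about 0.41 on the log2 scale are within the typical 95% interval.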
